A study of Mus musculus with 4 samples.

Results

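Annexins and S100 proteins are 2 families of calcium-binding proteins that tie a rise in calcium to membranes and to partner proteins, and their genes were read on arrays of mouse embryonic stem cell (ESC) lines with and without Dppa2. The genes were chosen by name, as every array probe whose accession maps to an annexin symbol (Anxa with a number), to a symbol starting with S100a, or to S100b, S100g, S100z or S100pbp. The families as such were selected with their difference between the KO and WT lines already in view, so that difference is given here as a description. Counts of members past a threshold stand beside the share over all genes and support nothing. Of 32 such symbols in the RefSeq table, 29 had at least 1 probe, out of 32301 genes and transcripts with a probe on the array. The 29 genes comprise 12 annexins, 16 S100 genes and S100pbp, and they are read by 32 probes. S100z, S100a2 and the pseudogene S100a11-ps were not analysed here.

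The array values come from 4 ESC lines, 2 deficient for Dppa2 (also named ECAT15-2) and 2 wild type, with 1 array for each line. The KO lines were 15-2-/- for Dppa2 and 15-1CT/CT for ECAT15-1, the neighbouring gene now called Dppa4, so both copies of Dppa4 carried the conditional targeted allele. The WT lines were 15-2+/+ and 15-1+/+. KO 1 and WT 1 were derived from blastocysts of mother 1046, and KO 2 and WT 2 from blastocysts of mother 875. All lines came from intercrosses of mice of mixed strain background (129Sv, C57/BL6, and Cre or FLPe transgenic mice of unknown background), and all were grown without feeder cells on a gelatin coat, in medium with 15% FCS (fetal calf serum) and LIF. Days in culture were given as 3 for every line. Each line is 1 derivation, so the spread between the lines of a genotype holds differences between derivations as well as between arrays.

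Annexins share a core of repeated domains that binds acidic phospholipids when calcium is present, and they take part in membrane repair, vesicle traffic and the link between membrane and actin. S100 proteins are small EF-hand proteins, mostly dimers, that expose a binding surface when they take up calcium and then grip a target, which is often the tail of an annexin. Both families are prominent in epithelia, and in the mouse most S100 genes lie in a cluster on chromosome 3 next to the epidermal differentiation complex.

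Signals are given as log2 of the scanner software's processed signal after scaling each array to its 75th percentile, so 1 unit is a 2-fold difference, and levels are compared only within a probe. On each array 28150 to 28931 of 41174 gene probes (68.4% to 70.3%) were well above background and no spot was saturated. Dppa2 itself read 7.05 and 7.12 in the KO lines, against 12.09 and 12.03 in the WT lines, a difference of -4.97 (SE 0.12, n = 2 per group, limma adjusted p = 0.0089). Dppa4 read 13.95 and 14.07 in the KO lines, against 13.37 and 13.54 in the WT lines (0.55, SE 0.14, limma adjusted p = 0.154). Marker lists of other cell types differed between the genotypes as summed signal. The 12 trophoblast markers summed to 64371 to 86999 in the KO lines, against 311202 to 417080 in the WT lines, with 10 of 12 genes lower in both KO lines. The 10 simple epithelium markers, which share Krt8, Krt18 and Krt19 with the trophoblast list, summed to 105311 to 118644 in the KO lines and 358935 to 485431 in the WT lines, with 9 of 10 lower in both KO lines. The 15 fibroblast markers summed to 63787 to 84103 in the KO lines and 124015 to 188880 in the WT lines, with 7 of 15 lower in both KO lines. Sums without the gene of widest gap were added after the data were seen. Without Krt8 the trophoblast sums were 45329 to 59030 in the KO lines and 177372 to 237325 in the WT lines. Krt8 and Krt18 were the brightest genes of the trophoblast list on every array. Its sum thus rests largely on keratins shared with the simple epithelium list, and no sum without all keratins is given. Tfap2c and Ascl2 of the trophoblast list were higher in both KO lines. Without Tagln the fibroblast sums were 59327 to 66846 in the KO lines and 49628 to 101745 in the WT lines and overlapped. The 8 ESC markers with a probe ran the other way, at 602782 to 707077 in the KO lines and 465071 to 474992 in the WT lines and 7 of 8 genes higher in both KO lines. The 15 primitive and visceral endoderm markers summed to 168169 to 221345 in the KO lines and 120426 to 132133 in the WT lines, but that order was set by Apoe. Without Apoe the endoderm sums were 25464 to 28149 in the KO lines and 58472 to 62075 in the WT lines. Of 14 tested endoderm genes, 7 were lower and 4 higher in both KO lines. Over all tested genes, both KO lines lay below both WT lines for 24.5% and above them for 37.7%. Limma called 2 of 15 fibroblast, 2 of 14 endoderm, 1 of 12 trophoblast and 1 of 10 simple epithelium markers lower, beside 1.67% of all genes. It called 0 ESC and 0 myeloid markers lower, and 0 markers of any list higher. No ESC, trophoblast, epithelial or fibroblast marker with a probe was below background on every array, while Ttr in the endoderm list was. The 11 myeloid markers with a probe summed to 395 to 443 in the KO lines and 449 to 482 in the WT lines, with Lyz2, Itgam, Adgre1, Spi1 and Elane not well above background on any array. Without Cd14 the myeloid sums were 203 to 266 in the KO lines and 234 to 239 in the WT lines and overlapped. The trophoblast and simple epithelium sums move with the annexin and S100 values below, and their part in them was not tested. In bulk RNA, fewer cells of a type and less RNA per cell cannot be told apart.

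**Figure D1:**
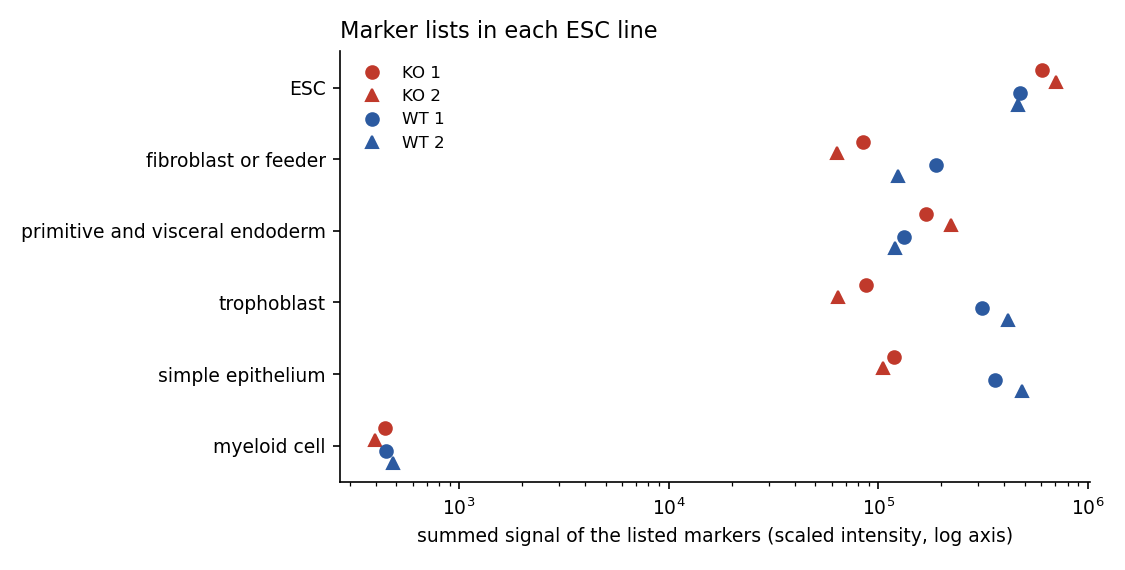
Summed processed signal of each marker list in each line (horizontal log axis), with KO lines drawn in rows over the WT lines within each list. Circles stand for mother 1046 and triangles for mother 875. Trophoblast and simple epithelium sums, which share their brightest keratins, lie lower in both KO lines than in both WT lines. ESC sums lie higher, the endoderm sums lie higher only through Apoe, and myeloid sums are between 395 and 482 on every array.

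Most annexin and S100 genes that could be measured were lower in the KO lines. Of the 29 genes, 23 passed the scanner software's background test on both KO arrays or both WT arrays, and those 23 passed it on all 4. They comprise 11 annexins, 11 S100 genes and S100pbp. The KO minus WT difference was negative for 16 of the 23 and positive for 7, with a median of -0.62, against a median of 0.10 and 40.8% negative over all 21639 genes and transcripts tested. The median was -0.55 over the 11 annexins and -0.70 over the 11 S100 genes. Taken within mother 1046 the 23 genes had a median of -0.44, and within mother 875 one of -0.82.

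In 14 of the 23 genes both KO lines read below both WT lines, 7 annexins and 7 S100 genes, where the share over all tested genes was 24.5%. Both KO lines read above both WT lines for 3 genes (Anxa7, Anxa8 and S100pbp), where the share over all genes was 37.7%, and the lines overlapped for 6. A difference of at least 2-fold lower in both pairs was seen for 7 genes (Anxa1, Anxa2, Anxa3, Anxa5, S100a1, S100a3 and S100a16), beside 6.94% of all genes, and of at least 2-fold higher for 0, beside 1.56%. The limma fit across all genes, with Benjamini-Hochberg adjustment at 0.05, called S100a16 lower (1.67% of all genes were called lower) and called 0 members higher (0.176% of all genes). At an unadjusted p under 0.05, 12 members were lower and 1 was higher, against 12.4% and 11.1% of all genes. When the mother entered the limma model as a block, 0 members and 0.0% of all genes were called, and unadjusted p-values under 0.05 were found for 9 members in the lower direction and 1 in the higher, against 12.6% and 10.5% of all genes. Because the families were chosen on this contrast, these counts describe them and are not read as a result.

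**Figure D2:**
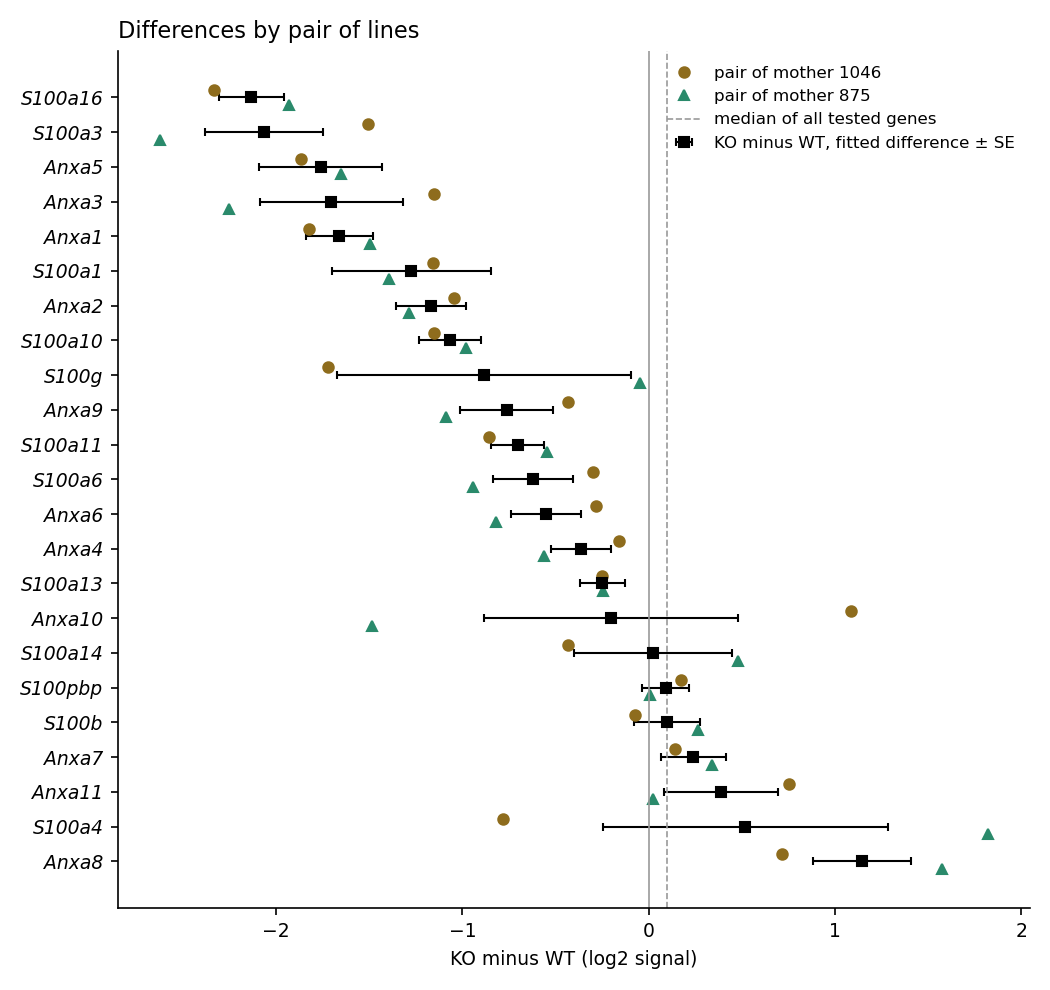
KO minus WT difference in log2 signal for the 23 tested genes, sorted by size, with the fitted difference ± SE (squares) and the difference within the pair of mother 1046 (circles) and of mother 875 (triangles); the dashed line is the median of all tested genes, 0.10. Squares run from -2.13 for S100a16 to 1.15 for Anxa8, and the triangles and circles of S100a4 and Anxa10 lie on opposite sides of 0.

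The best-known pair between the families is Anxa2 with S100a10, which bind each other in a complex under the plasma membrane that also holds plasminogen. Anxa2, on chromosome 9, read 12.13 and 11.75 in the KO lines, against 13.17 and 13.04 in the WT lines (difference -1.17, SE 0.19, 2.24-fold lower). Its other probe averaged 10.52 ± 0.27 in the KO lines, against 11.73 ± 0.15 in the WT lines (SD, n = 2 each; difference -1.21), so both probes placed the KO lines below the WT lines. S100a10, the S100 protein that binds its target without calcium, read 14.57 and 14.87 in the KO lines, against 15.73 and 15.85 in the WT lines (-1.07, SE 0.17, 2.10-fold lower). For both partners both KO lines lay below both WT lines, and the S100a10 difference was -1.15 within mother 1046 and -0.98 within mother 875.

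Anxa1 and S100a11 form a second pair, in which S100a11 binds the tail of Anxa1. Anxa1, a phospholipase-regulating annexin with an anti-inflammatory tail, read 12.69 and 12.65 in the KO lines, against 14.51 and 14.15 in the WT lines (-1.66, SE 0.18, 3.16-fold lower). S100a11 read 13.42 and 13.58 in the KO lines, against 14.28 and 14.13 in the WT lines (-0.70, SE 0.14, 1.63-fold lower). Neither gene overlapped between the genotypes, and the difference was of similar size in the pairs of mother 1046 and mother 875 for Anxa1 (-1.83 and -1.50) and for S100a11 (-0.86 and -0.55).

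The promoter windows of Anxa1, Anxa2 and S100a11 differ in the short motifs they hold. For S100a10 no window was found, so its motifs were not searched. RefSeq sequence of build GRCm38.p6, from 250 bases before to 50 after the start, is shown for Anxa1 (chr19:20390622-20390921, minus strand), Anxa2 (chr9:69453433-69453732, plus strand) and S100a11 (chr3:93520246-93520545, plus strand), because they are partner genes that were lower together and hold motifs that were searched. Capitals mark a TATA box (TATAAA), a GC box (GGGCGG), an AP-1 site (TGANTCA) and an E-box (CACGTG) on either strand.
Anxa1 promoter: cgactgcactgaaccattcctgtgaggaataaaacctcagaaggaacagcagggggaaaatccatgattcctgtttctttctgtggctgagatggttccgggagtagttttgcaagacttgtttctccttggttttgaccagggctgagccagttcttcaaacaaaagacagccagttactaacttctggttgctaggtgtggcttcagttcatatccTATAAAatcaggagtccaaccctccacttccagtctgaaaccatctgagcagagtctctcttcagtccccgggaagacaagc
Anxa2 promoter: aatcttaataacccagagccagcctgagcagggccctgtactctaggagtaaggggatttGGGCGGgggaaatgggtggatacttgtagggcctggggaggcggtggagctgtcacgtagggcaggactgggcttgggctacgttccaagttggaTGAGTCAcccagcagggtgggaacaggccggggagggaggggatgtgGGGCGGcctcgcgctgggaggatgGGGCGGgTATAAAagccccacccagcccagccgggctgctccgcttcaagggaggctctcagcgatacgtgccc
S100a11 promoter: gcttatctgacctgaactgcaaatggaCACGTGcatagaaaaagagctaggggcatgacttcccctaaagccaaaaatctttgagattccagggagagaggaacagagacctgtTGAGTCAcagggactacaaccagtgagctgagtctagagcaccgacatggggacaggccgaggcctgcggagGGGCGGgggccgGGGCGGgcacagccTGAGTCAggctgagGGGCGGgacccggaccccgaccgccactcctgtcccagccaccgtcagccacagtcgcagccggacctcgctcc
In these windows Anxa1 holds 1 TATA box, Anxa2 holds 1 TATA box, 3 GC boxes and 1 AP-1 site, and S100a11 holds 3 GC boxes, 2 AP-1 sites and 1 E-box. A match is a stretch of letters and says nothing about whether a factor binds there.

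Of the other annexins, Anxa5 and Anxa3 had the larger differences. Anxa5, on chromosome 3 and known for binding phosphatidylserine on dying cells, read 12.31 and 11.83 in the KO lines, against 14.17 and 13.48 in the WT lines (-1.76, SE 0.33, 3.39-fold lower). Anxa3, on chromosome 5, read 13.77 and 12.77 in the KO lines, against 14.92 and 15.02 in the WT lines (-1.70, SE 0.39, 3.25-fold lower). For Anxa5 both KO lines lay more than 1 log2 unit below both WT lines, and for Anxa3 KO 2 was the lowest line and KO 1 lay nearer to the WT lines.

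Smaller differences in the same direction were seen for 3 more annexins. Anxa9, an annexin whose core has lost calcium-binding residues, read 7.01 and 6.42 in the KO lines, against 7.45 and 7.51 in the WT lines (-0.76, SE 0.25). Anxa6, which carries a repeated annexin core, read 9.82 and 9.46 in the KO lines, against 10.10 and 10.28 in the WT lines (-0.55, SE 0.19). Anxa4, an annexin of secretory epithelia, read 9.83 and 9.70 in the KO lines, against 9.99 and 10.26 in the WT lines (-0.36, SE 0.16). In all of these the lines did not overlap between the genotypes, but the other probe of Anxa4 read 8.69 and 8.48 in the KO lines against 8.68 and 9.14 in the WT lines, where KO 1 and WT 1 were level.

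Anxa8 stood at the other end of the family. It read 12.28 and 12.85 in the KO lines, against 11.56 and 11.27 in the WT lines, a difference of 1.15 (SE 0.26, 2.21-fold higher). Within mother 1046 it was 0.72, and within mother 875 it was 1.57. Both KO lines were above both WT lines, whereas Anxa7 and Anxa11, which lie on chromosome 14 like Anxa8, differed by less. Anxa7, also called synexin, read 10.41 and 10.73 in the KO lines, against 10.27 and 10.39 in the WT lines (0.24, SE 0.17). Anxa11, a partner of S100a6, read 10.96 and 11.00 in the KO lines, against 10.20 and 10.98 in the WT lines (0.39, SE 0.31), so only WT 1 was clearly lower.

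The promoter window of Anxa8 (GRCm38.p6, chr14:34085729-34086028, plus strand) is shown because it is the annexin with the highest KO minus WT difference. It holds 0 matches to the motifs searched and 5 CpG dinucleotides, so no letters are in capitals.
Anxa8 promoter: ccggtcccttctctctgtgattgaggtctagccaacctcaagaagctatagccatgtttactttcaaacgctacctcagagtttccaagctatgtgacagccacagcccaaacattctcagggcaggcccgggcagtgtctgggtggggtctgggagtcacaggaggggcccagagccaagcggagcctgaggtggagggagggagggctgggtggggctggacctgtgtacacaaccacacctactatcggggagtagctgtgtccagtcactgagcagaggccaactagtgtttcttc

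Anxa10 and Anxa13 gave no direction. Anxa10, an annexin best known from the stomach, read 6.06 and 4.65 in the KO lines, against 4.97 and 6.14 in the WT lines (-0.20, SE 0.68), and the differences within the pairs were 1.09 and -1.49. Anxa13, an annexin of intestinal and kidney epithelia, was well above background on 1 of 4 arrays with one probe and on 0 with the other, and was not tested. The lines of both genotypes therefore overlapped for Anxa10, and for Anxa13 only background was read on most arrays.

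**Figure D3:**
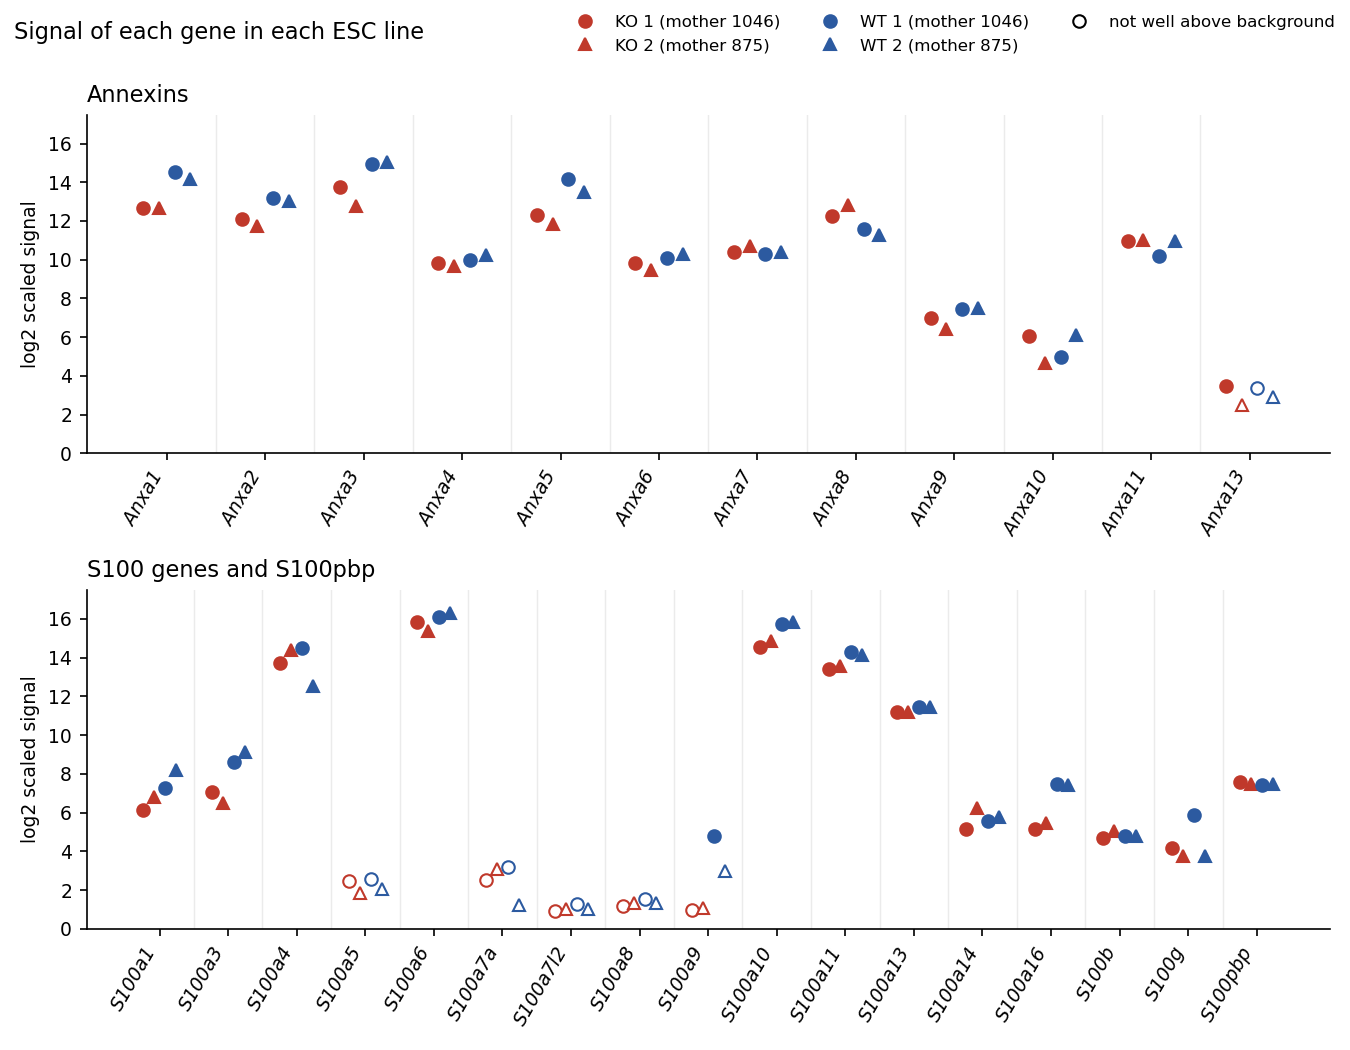
Log2 scaled signal of every annexin (upper panel) and every S100 gene with S100pbp (lower panel) in each line, KO lines (red) left of WT lines (blue), circles for mother 1046 and triangles for mother 875, open symbols where the probe was not well above background. Red symbols lie under blue ones for 14 of the 23 tested genes, Anxa8 shows the reverse, and S100a4 has 1 WT line far below the other 3 lines.

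Of the 16 S100 genes, 14 lie on chromosome 3, and 9 of those were tested. Both KO lines lay below both WT lines for 7 of the 9, beside 24.5% of all tested genes. S100a16, a widely expressed S100 protein, read 5.13 and 5.47 in the KO lines, against 7.47 and 7.41 in the WT lines (-2.13, SE 0.17, 4.38-fold lower), a difference that was -1.24 after normexp background correction and -1.07 with normexp and quantiles. S100a3, best known from the hair cuticle, read 7.09 and 6.49 in the KO lines, against 8.59 and 9.12 in the WT lines (-2.06, SE 0.32, 4.18-fold lower). The S100a3 difference was -1.60 after normexp background correction and -1.51 with normexp and quantiles. S100a1, best known from heart muscle, read 6.13 and 6.79 in the KO lines, against 7.28 and 8.18 in the WT lines (-1.27, SE 0.43, 2.42-fold lower). For S100a16 the lines of each genotype lay close together, while S100a1 was higher in the line from mother 875 in both genotypes.

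The cluster also held genes with small differences or none in one direction. S100a6, also called calcyclin, read 15.83 and 15.38 in the KO lines, against 16.13 and 16.32 in the WT lines (-0.62, SE 0.22, 1.54-fold lower). S100a13, known for its part in the release of FGF1, read 11.20 and 11.22 in the KO lines, against 11.45 and 11.47 in the WT lines (-0.25, SE 0.12, 1.19-fold lower). S100a14 read 5.14 and 6.23 in the KO lines, against 5.57 and 5.75 in the WT lines (0.02, SE 0.42). The genotypes overlapped for S100a14, which lies between S100a13 and S100a16 on the chromosome, and S100a13 had the smallest difference among the genes with both KO lines below both WT lines.

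S100a4, the myosin-binding S100 protein also called metastasin, read 13.74 and 14.39 in the KO lines, against 14.52 and 12.56 in the WT lines. The difference was 0.52 (SE 0.77), with -0.78 within mother 1046 and 1.82 within mother 875. WT 2 was the low line, and without WT 2 the difference was -0.46.

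**Figure D4:**
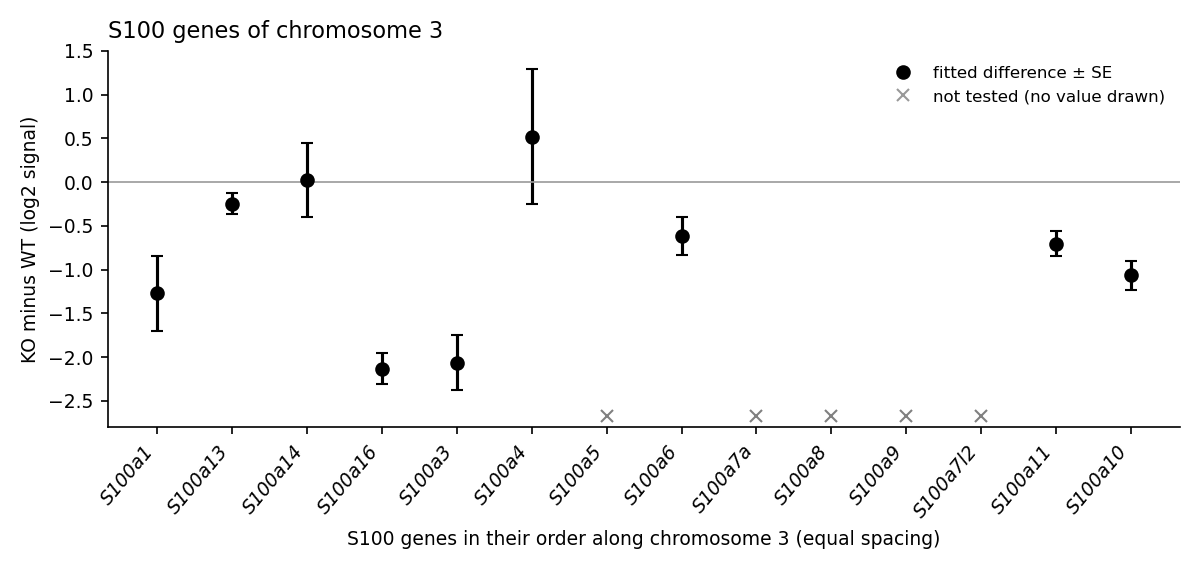
KO minus WT difference in log2 signal (fitted difference ± SE) for the 14 S100 genes of chromosome 3, in their order along the chromosome with equal spacing; crosses at the foot mark the 5 genes that were not tested. S100a16 and S100a3 are neighbours with differences of -2.13 and -2.06, and S100a14 at 0.02 and S100a4 at 0.52 lie on either side of them.

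Neighbours in the cluster thus read differences of unlike size, among them S100a1 and S100a13. They are transcribed away from each other, and their promoter windows (GRCm38.p6, chr3:90514281-90514580 on the minus strand for S100a1 and chr3:90514185-90514484 on the plus strand for S100a13) overlap by 204 bases. The S100a1 window is shown with those shared bases in capitals, and the S100a16 window (chr3:90537004-90537303, plus strand), which holds 0 of the motifs searched and 2 CpG dinucleotides, is shown because S100a16 had the lowest KO minus WT difference of the tested members.
S100a1 promoter: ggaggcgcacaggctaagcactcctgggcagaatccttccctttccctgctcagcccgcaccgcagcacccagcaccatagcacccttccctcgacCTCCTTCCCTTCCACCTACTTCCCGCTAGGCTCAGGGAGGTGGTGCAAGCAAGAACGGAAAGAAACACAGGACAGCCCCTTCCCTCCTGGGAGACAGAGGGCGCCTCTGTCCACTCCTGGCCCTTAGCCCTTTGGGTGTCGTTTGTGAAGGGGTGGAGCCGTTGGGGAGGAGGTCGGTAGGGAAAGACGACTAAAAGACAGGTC
S100a16 promoter: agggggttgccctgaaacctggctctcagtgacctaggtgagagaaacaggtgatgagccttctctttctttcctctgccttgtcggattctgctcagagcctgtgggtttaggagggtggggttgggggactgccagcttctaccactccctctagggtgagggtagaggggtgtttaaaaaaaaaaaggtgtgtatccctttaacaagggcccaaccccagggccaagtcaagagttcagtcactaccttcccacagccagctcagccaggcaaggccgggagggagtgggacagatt
The probes of S100a1 and S100a13 differed by -1.27 (SE 0.43) and -0.25 (SE 0.12) between KO and WT. For both genes both KO lines lay below both WT lines. The S100a1 difference was -0.73 with normexp and quantiles and -0.82 without WT 2. A link between the windows and these differences was not tested.

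A further 5 S100 genes of the cluster, among them those best known from myeloid cells and skin, were at or near background. S100a9, which with S100a8 forms calprotectin, read 0.98 and 1.08 in the KO lines, against 4.81 and 2.99 in the WT lines, and was well above background only on the WT 1 array. Because WT 2 was not well above background either, no bound on the difference between the genotypes is given, and the gene was not tested. S100a5, S100a7a, S100a7l2 and S100a8 were not well above background on any array and were not tested.

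Outside chromosome 3, S100b and S100g were tested. S100b, the S100 protein of glia on chromosome 10, read 4.70 and 5.06 in the KO lines, against 4.77 and 4.79 in the WT lines (0.10, SE 0.18). S100g, the vitamin D-dependent calbindin of the gut on chromosome X, read 4.15 and 3.74 in the KO lines, against 5.87 and 3.78 in the WT lines (-0.88, SE 0.79). The genotypes overlapped for both, and for S100g only WT 1 stood apart. S100pbp, whose product was named for binding S100P in human cells, read 7.60 and 7.49 in the KO lines, against 7.43 and 7.48 in the WT lines (0.09, SE 0.13), a difference close to the median of all genes.

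The mother of a line gives a contrast that the choice of genes did not use. Between mother 875 and mother 1046, with genotype in the model, limma called 0 of the 23 genes and 0.0% of 21800 genes and transcripts, and 2 of the 23 had an unadjusted p under 0.05, against 7.85% of all. S100a1 was higher with mother 875 in both genotypes (difference 0.78, SE 0.14, limma adjusted p = 0.632). Anxa5 was lower with mother 875 in both genotypes (-0.58, SE 0.14, limma adjusted p = 0.632). Lines of 1 genotype also differed. WT 2 minus WT 1 was -1.96 for S100a4 and -2.09 for S100g, and KO 2 minus KO 1 was -1.41 for Anxa10 and 1.09 for S100a14. The gap was wider between the KO lines than between the WT lines for 15 of the 23 genes and for 59.1% of all genes.

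Genes that work with annexins and S100 proteins were followed through 4 lists that hold 143 genes in all. Of 132 with a probe, 96 were tested, and limma called 4 lower, 1 higher and 91 not, where 1.67% of all genes were called lower and 0.176% higher. Their median difference was -0.15, against 0.10 over all genes. The threshold was the same adjusted p of 0.05 over all genes, and the lists were drawn up with the results of these arrays known. Before adjustment, 22 were lower and 5 higher at p under 0.05, against 12.4% and 11.1% of all genes. Of the 4 called lower, 3 (Cftr, Calb2 and Sytl4) were above background on no KO array and entered the fit only through the WT arrays, so they could enter only as genes lower in the KO lines, and their calls add no support for a direction. Ahnak was the other.

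Among partners and receptors, 2 of 24 tested genes were called lower and 0 higher by limma, beside 1.67% and 0.176% of all genes. Before adjustment 8 were lower and 0 higher at p under 0.05, against 12.4% and 11.1% of all genes. Ahnak, the giant scaffold that the Anxa2 and S100a10 complex binds, read 13.21 and 13.12 in the KO lines, against 14.50 and 14.55 in the WT lines (-1.36, SE 0.12, 2.57-fold lower, limma adjusted p = 0.041). Cftr, a chloride channel reported to bind the same complex, read 2.69 and 2.67 in the KO lines, against 6.16 and 6.63 in the WT lines, at least 8.63-fold lower because no KO array was well above background (limma adjusted p = 0.022). Myh9, the non-muscle myosin that S100a4 binds, read 14.88 and 14.69 in the KO lines, against 15.86 and 15.79 in the WT lines, and did not pass (-1.04, SE 0.14, limma adjusted p = 0.071). All of these had both KO lines below both WT lines. None of the listed genes was called once the mother was a block, where limma called 0 of all genes (smallest adjusted p = 0.079; before adjustment, 2736 lower and 2278 higher at p under 0.05).

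Of 33 tested EF-hand proteins outside the S100 family, limma called 1 lower and 0 higher, beside 1.67% and 0.176% of all genes. Before adjustment 4 were lower and 1 higher at p under 0.05, against 12.4% and 11.1% of all genes. Nothing is read from these counts. Calb2, the buffer calretinin, read 2.64 and 2.55 in the KO lines, where it was not well above background, against 4.90 and 4.99 in the WT lines (at least 3.16-fold lower, limma adjusted p = 0.022). Capn2, the large subunit of m-calpain, read 11.19 and 10.87 in the KO lines, against 12.09 and 12.39 in the WT lines (-1.21, SE 0.20, limma adjusted p = 0.093). Capn6, a calpain relative, had a difference of -0.84 (SE 0.23, limma adjusted p = 0.167). Calb2 was the member called, and its bound rests on the background of the KO arrays.

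Of 34 tested proteins that bind membranes through C2 domains, limma called 1 lower and 1 higher, beside 1.67% and 0.176% of all genes. Before adjustment 9 were lower and 4 higher at p under 0.05, against 12.4% and 11.1% of all genes. Both KO lines lay below both WT lines for 14 of the 34 and above them for 8, beside 24.5% and 37.7% of all tested genes. Sytl4, a Rab27 effector also called granuphilin, read 2.46 and 2.80 in the KO lines, where it was not well above background, against 6.19 and 6.21 in the WT lines (at least 7.52-fold lower, limma adjusted p = 0.018). Syt4, a synaptotagmin, read 7.34 and 7.18 in the KO lines, against 5.86 and 5.78 in the WT lines (1.44, SE 0.14, 2.71-fold higher, limma adjusted p = 0.043). Syt13 read 8.91 and 9.42 in the KO lines, against 11.33 and 11.64 in the WT lines (-2.32, SE 0.25, limma adjusted p = 0.052).

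The epidermal differentiation complex, the skin barrier genes among which the S100 cluster lies, had 6 tested genes of 23 with a probe. Limma called 0 of them, beside 1.67% lower and 0.176% higher of all genes. Before adjustment 2 were lower and 0 higher at p under 0.05, against 12.4% and 11.1% of all genes. Lor, the barrier protein loricrin, read 9.23 and 8.88 in the KO lines, against 10.41 and 11.16 in the WT lines (-1.73, SE 0.33, limma adjusted p = 0.106). Sprr1a and Tchh, a cornified envelope protein and the hair protein trichohyalin, differed by -0.79 (SE 0.21) and -0.77 (SE 0.29). The other 3 tested genes differed by 0.22 (SE 0.15), 0.13 (SE 0.13) and 0.01 (SE 0.13). The list thus held 3 negative and 3 positive differences, where 40.8% of all tested genes were negative.

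Promoter windows were found in the RefSeq table for 24 of the 29 genes. Of these, 8 (33.3%) held a TATA box against 13.6% of all 32851 windows of that length, 7 (29.2%) a GC box against 35.7%, 4 (16.7%) an AP-1 site against 7.81%, and 2 (8.33%) an E-box against 7.15%. The TATA boxes were in Anxa1, Anxa2, Anxa10, S100a4, S100a8, S100a9, S100a7l2 and S100g, so genes lower in the KO lines, genes with overlapping lines and genes at background all hold one. The median number of CpG dinucleotides was 4 over the 24 windows and 7 over all windows. It was 13 over the 11 tested genes whose KO lines lay below their WT lines, 3.5 over the other 8 tested genes and 2 over the 5 that were not tested, with S100a16 and S100a3 at 2 each among the first. The split by KO and WT lines uses the same values on which the families were chosen. No matching median is given for other genes lower in the KO lines, so nothing is read from the split. These shares and medians are descriptions of the letters in the windows, and a tie to expression was not tested.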

How the data were processed

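RNA of 2 KO and 2 WT ESC lines was measured with Cy3 on Agilent arrays, 1 array per line. Per the file headers, spot intensity came from the scanned images through Feature Extraction 10.7.3.1 of Agilent, with background subtraction and detrending inside each array. The deposited series table holds log2 values whose scale is not stated in the sources used here; each column correlated with the log2 processed signal of its array at 0.999902 to 0.999988 and had a median of 6.55, and the scaling steps behind it stay unknown beyond that. The headers name build mm9, whereas symbols, chromosomes and promoter windows come from RefSeq tables of GRCm38.p6.

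The deposited processed intensity was put on the log2 scale and each array was shifted by its own 75th percentile. Control spots and 233 probes with outlier flags were left out, and repeated spots were averaged. Among 41174 gene probes, 26690 had 1 symbol, 0 had several and 14484 had none. A probe was kept if it passed the background test on both KO or both WT arrays, and the brightest kept probe stood for its gene. Genotypes were fitted in R 4.3.3 with limma 3.58.1 over 21639 genes and transcripts, with Benjamini-Hochberg adjustment at 0.05. A bound ("at least N-fold") sets the brighter group against the dim probe or, where higher, the array's lowest signal that passed the background test (log2 3.24 to 3.58). All arrays lay on 1 slide and 1 scan, and their number limits the precision.

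The labels tie equal line numbers to a shared mother, so a model with mother as a block was fitted beside the main one; the KO and WT deviations between mothers had a correlation of 0.19 over genes. The other 14 alternatives changed background correction (normexp on the median spot intensity in place of the mean), scaling, the filter, the probes, the prior or left out 1 line. The members, the 4 gene lists and the marker lists were chosen with earlier results of these data known. Every member was named, and of each list the genes past the threshold, or the 3 with the smallest p where fewer than 3 passed. The scripts were tested on simulated data.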

Additional observations from a re-analysis of the deposited data

How the results depend on the processing

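Under all 15 alternatives 18 of the 23 tested genes kept the sign of their difference. Not all of these settings could change it. The prior and the mother block leave each difference as it is by construction. Both filter settings and separate probes left it unchanged, and the probe mean can move only genes with more than 1 probe. The sign was thus open mainly to background correction, scaling, the deposited values and leaving out 1 line. The exceptions were S100a4 (-0.46 without WT 2), S100g (0.16 without WT 1), S100a14 (3 alternatives), S100b (2) and Anxa10 (5). The median over the members was -0.36 with no filter on dim probes, against -0.62, and -0.85 to -0.43 with 1 line left out. Members called lower numbered 2 with normexp at the 75th percentile, with normexp and quantiles and with the mean of probes, 3 with an intensity trend and robust prior, 0 with quantile scaling, the deposited values, no filter, a filter on all 4 arrays and the mother as a replicate block, and 0 to 2 with 1 line left out. Limma called 0 of all genes with the filter on all 4 arrays, the mother block and without WT 1, WT 2 or KO 2, and 870 without KO 1, against 399, so a 0 there is not particular to the members. Normexp was run on the median spot signal. The S100a1 difference was -0.73 with normexp and quantiles and -0.82 without WT 2, against -1.27. Listed genes called lower numbered 8 with every probe, 7 with the trend and robust prior, 0 with a filter on all 4 arrays and the mother block, and 0 to 6 with 1 line left out. Listed genes called higher numbered 0 with normexp at the 75th percentile, no filter, a filter on all 4 arrays, the trend and robust prior, the mother block and each line left out. Adjusted p over the alternatives ran from 0.0223 to 0.252 for Ahnak, 0.0189 to 0.143 for Cftr, 0.0189 to 0.203 for Calb2, 0.0143 to 0.143 for Sytl4 and 0.0366 to 0.254 for Syt4. Their differences ran from -3.95 to -0.99 for Cftr, -2.40 to -0.39 for Calb2, -3.74 to -0.93 for Sytl4, 0.73 to 1.61 for Syt4 and -1.53 to -1.02 for Ahnak, so the bounds for Cftr, Calb2 and Sytl4 hold only for the scaling they were computed in. Members with both KO lines above both WT lines, a count added after the data were seen, numbered 5 with median centring and with normexp and quantiles, and 4 to 6 with 1 line left out, against 3. Those with both KO lines below numbered 13 to 15 with all 4 lines and a filter, against 14. They numbered 17 with no filter on dim probes, where 29 genes were counted. With 1 line left out they numbered 15 to 17. Leaving out 1 line sets 1 line against 2, a looser rule for both of these counts. Median centring put the median of all genes at 0.26, against 0.10. The causes were not tested. Signal near background limits S100a9, Anxa13 and the other 4 untested genes. It also limits the tested gene S100g, at 3.74 in KO 2 and 3.78 in WT 2. The lowest signals that passed the background test were log2 3.24 to 3.58. With normexp and quantiles the S100g difference was -0.23, against -0.88, and the S100a16 difference was -1.07, against -2.13.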
